A study of Rattus norvegicus with 10 samples.

Results

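The genes described here are those of the activin system: the activin ligand subunits Inhba and Inhbb, the type I receptors Acvr1, Acvr1b and Acvr1c, the type II receptors Acvr2a and Acvr2b, and the binders and decoys Fst, Fstl1 and Bambi. Each of these 10 symbols matched exactly 1 of the 32041 rows of an mRNA count matrix, and all 10 rows passed the filter on low counts that left 22447 rows for testing. Inhba was picked by its measured values, for its rise in stimulated rats, so its values are given as a description and without a test. The other 9 genes were chosen by name, with earlier results of these data known. The paper lists Acvr1 and Acvr1c among the genes upregulated in this model.

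The counts came from 10 male Sprague-Dawley rats, from the CA3 field and dentate gyrus of the left hippocampus. All 10 carried an electrode in the left lateral nucleus of the amygdala. Rats 1 to 5 were sham controls of the same age that received no current. Rats 6 to 10 were stimulated through the electrode for 30 min at 400 µA and 60 Hz. This set off status epilepticus, a seizure that does not stop by itself, and it was ended with diazepam at 20 mg/kg, which the sham rats are not described as receiving. Per the methods, stimulation went on longer in a rat that did not enter status epilepticus, and more diazepam followed where the first dose failed. Which rats this concerned is not given. Stimulated rats were also monitored by video and electroencephalography (EEG) for the last 2 weeks, which is not described for sham rats. Every stimulated rat that was enrolled had spontaneous seizures, per the methods. Tissue was taken 3 months after stimulation. In these bulk samples a difference in the number of cells of a type and a difference in RNA per cell cannot be told apart. Stimulation, diazepam and EEG monitoring cannot be told apart either.

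Aligned counts were between 13552309 and 24086059 in sham rats and between 15586870 and 21642792 in stimulated rats. Reads that the authors could not align made up 32.8 to 37.1% of the total in sham rats. In stimulated rats 6 to 10 they made up 35.6, 32.0, 41.4, 42.9 and 45.1%, so rats 8, 9 and 10 lay above the sham range. Values below are CPM, the aligned counts scaled to a common library size with trimmed mean factors, and fold changes are log2 of stimulated over sham from edgeR with their standard error (SE). Adjusted p-values are from the quasi-likelihood test of edgeR with Benjamini-Hochberg adjustment over all 22447 rows.

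Activins are dimers of β subunits and belong to the transforming growth factor β (TGF-β) family. A homodimer of Inhba products is activin A and a homodimer of Inhbb products is activin B. The ligand binds a type II receptor, which phosphorylates a type I receptor, which in turn phosphorylates Smad2 and Smad3. These join Smad4 in the nucleus to act on transcription. Follistatin, the product of Fst, binds activin outside the cell and keeps it from its receptors. In the hippocampus, Inhba is known as a gene that strong synaptic activity induces in neurons, and activin A is known for protecting neurons from excitotoxic injury and for acting on dendritic spines.

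The start-site sequences of both ligand subunit genes and of Acvr1c are shown because Inhba and Acvr1c were high in several of the same stimulated rats, whereas Inhbb was not. Each is the 250 bases before the start in RefSeq on the rat build GRCr8, written 5′ to 3′ on the strand of the gene, with TATAAA in capitals where it occurs. The Inhba window is chr17:53804509-53804758 on the minus strand, the Inhbb window chr13:33089374-33089623 on the minus strand and the Acvr1c window chr3:63301155-63301404 on the minus strand.
Inhba: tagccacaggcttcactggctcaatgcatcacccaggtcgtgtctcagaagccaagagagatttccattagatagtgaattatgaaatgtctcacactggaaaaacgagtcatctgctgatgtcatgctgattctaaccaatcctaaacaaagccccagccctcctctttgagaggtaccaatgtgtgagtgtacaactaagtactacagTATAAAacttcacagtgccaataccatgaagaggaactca
Inhbb: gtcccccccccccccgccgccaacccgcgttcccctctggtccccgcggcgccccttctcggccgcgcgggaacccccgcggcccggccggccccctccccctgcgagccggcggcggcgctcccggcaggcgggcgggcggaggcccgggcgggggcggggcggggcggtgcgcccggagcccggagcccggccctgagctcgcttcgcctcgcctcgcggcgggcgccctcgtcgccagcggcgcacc
Acvr1c: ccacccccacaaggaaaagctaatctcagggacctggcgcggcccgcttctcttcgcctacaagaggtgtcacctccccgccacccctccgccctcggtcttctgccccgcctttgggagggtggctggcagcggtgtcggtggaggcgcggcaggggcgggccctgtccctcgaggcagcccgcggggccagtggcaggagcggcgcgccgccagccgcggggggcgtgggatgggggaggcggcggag
The Inhba window holds 43.6% G and C, against 86.8% in Inhbb, 74.4% in Acvr1c and a median of 51.2% over 33469 rat promoter windows. TATAAA begins 40 bases before the Inhba start. The same letters, searched on both strands, occur in 12.9% of all windows. The start used for Inhba lies inside the span that RefSeq gives the gene, so other starts of Inhba lie outside this window.

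Of the 10 genes, 8 had a window, and Acvr1 and Fst were not among them. The 8 windows were searched on both strands for TGACGTCA (the cyclic AMP response element), TGANTCA (AP-1), CAGAC (the Smad box), TATAAA and the CArG box, the site of serum response factor. The TATAAA of Inhba was the single match in them. Over all windows TGACGTCA occurred in 1.59%, TGANTCA in 6.34%, CAGAC in 42.9% and the CArG box in 1.50%. A match of letters is a description of the sequence and not of binding.

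Inhba was low in every sham rat and spanned a wide range in stimulated rats. Its level was 0.93, 1.14, 0.93, 1.03 and 0.88 CPM in sham rats 1 to 5, on 15 to 25 counts a library. It was 1.67, 29.2, 1.85, 50.4 and 7.43 CPM in stimulated rats 6 to 10, on 37, 628, 29, 989 and 144 counts. All 5 stimulated rats thus lay above all 5 sham rats, and rats 9 and 7 were far above the other stimulated rats, with rat 10 between. Of all 22447 rows, 156 (0.695%) had all stimulated rats above all sham rats, and Inhba was picked for being higher.

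The group means of Inhba were 0.983 ± 0.107 CPM (SD, n = 5) in sham rats and 18.1 ± 21.3 CPM (SD, n = 5) in stimulated rats. The fitted log2 fold change was 4.21 (SE 0.85), and it lay between 3.36 and 4.49 when each rat was left out in turn. The coefficient of variation was 10.8% in sham and 118% in stimulated rats, so a group mean describes few of the stimulated rats. Relative to the sham mean, rat 9 stood at 51.3-fold, rat 7 at 29.7-fold and rat 10 at 7.56-fold, while rat 8 stood at 1.88-fold and rat 6 at 1.70-fold. For rats 6 and 8 the counting error matters. The exact 95% Poisson interval was 1.18 to 2.31 CPM in rat 6 and 1.24 to 2.66 CPM in rat 8, and that of the highest sham rat, rat 2, was 0.641 to 1.89 CPM, so these 3 intervals overlap. These intervals, like all others given here, cover counting error only.

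**Figure D1:**
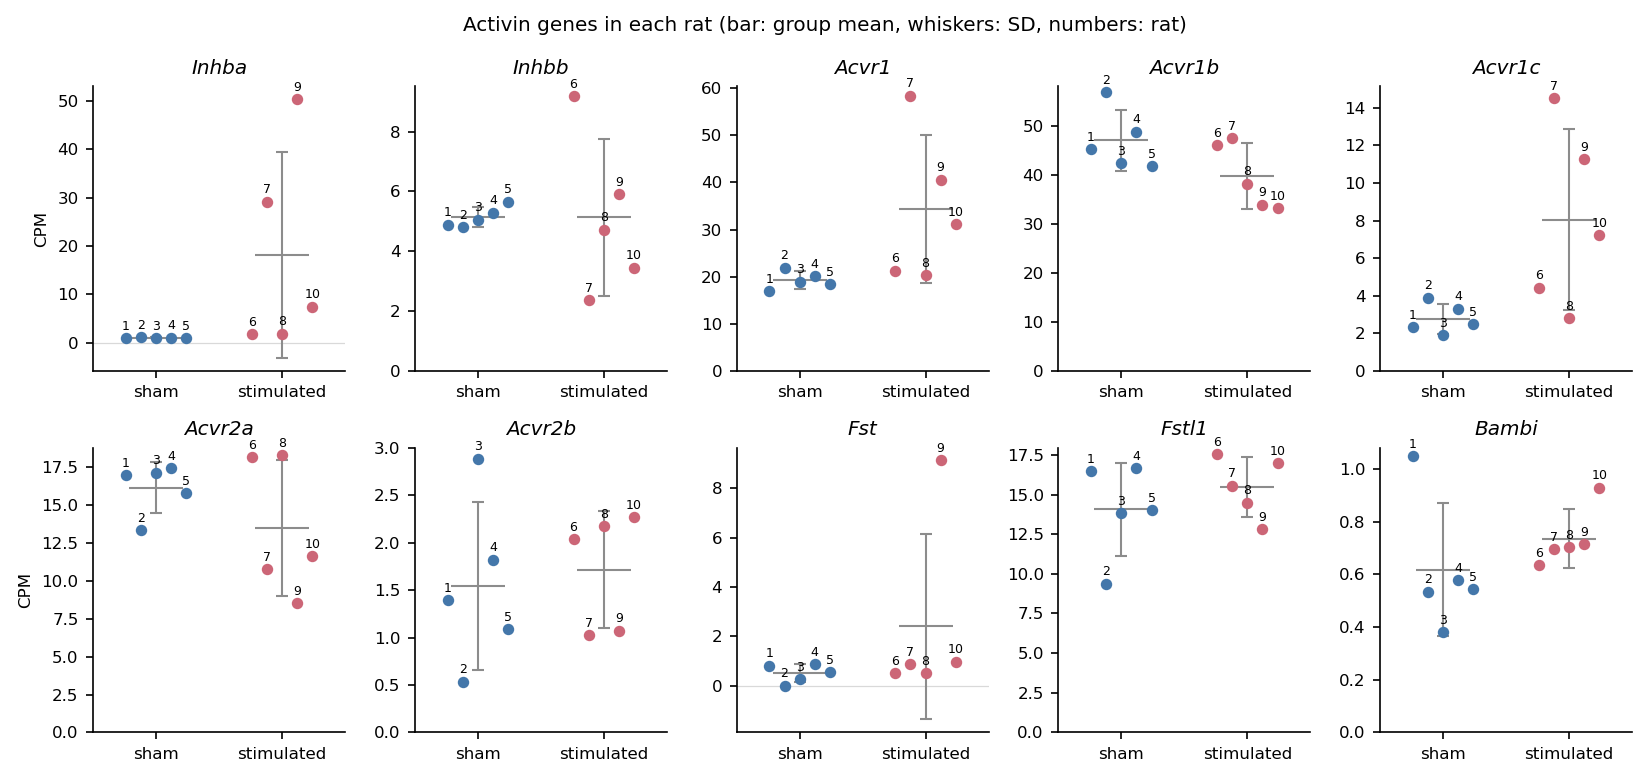
Each panel plots 1 gene, with CPM on a linear vertical axis, blue points for sham rats 1 to 5, red points for stimulated rats 6 to 10, a bar at the group mean and whiskers of 1 SD (n = 5 each). Inhba in rats 7, 9 and 10 stands at 29.2, 50.4 and 7.43 CPM over sham values near 1, Acvr1 and Acvr1c are highest in the same 3 rats, and Acvr2a is lowest in them.

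Inhbb, the subunit of activin B, did not follow Inhba. It was 4.89, 4.81, 5.06, 5.29 and 5.66 CPM in sham rats, a narrow range. In stimulated rats 6 to 10 it was 9.19, 2.37, 4.73, 5.92 and 3.46 CPM. Rats 6 and 9 lay above every sham rat, and rats 7, 8 and 10 lay below every sham rat, so the stimulated rats surrounded the sham range. The means were 5.14 ± 0.34 and 5.13 ± 2.63 CPM, and the log2 fold change was -0.0029 (SE 0.28, adjusted p = 0.998 by edgeR). The coefficient of variation was 6.68% in sham and 51.2% in stimulated rats.

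Because the subunits pair with each other, the share of Inhba among the reads of both subunits was also computed. It was between 13.5 and 19.2% in sham rats. In stimulated rats 6 to 10 it was 15.4, 92.5, 28.2, 89.5 and 68.2%. The 95% Wilson intervals were 90.3 to 94.2% in rat 7 and 87.6 to 91.2% in rat 9, far from the sham values, whereas the interval of rat 6 was 11.4 to 20.5% and overlapped those of all sham rats. Rat 6 had the highest Inhbb level of all 10 rats, and its share stayed within the sham range although its Inhba level was above it. The share depends on the lengths of the transcripts, which were not used here, so it can be compared between rats but does not give the ratio of molecules.

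**Figure D2:**
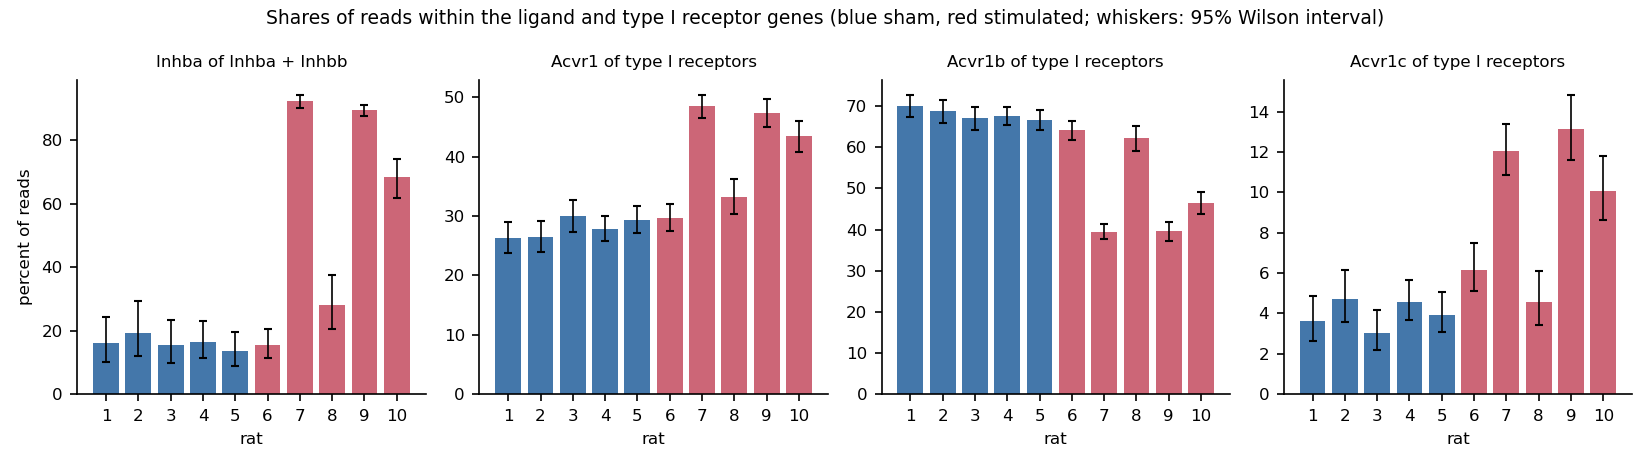
Bars give the percentage of reads in each rat, from 0, with 95% Wilson intervals, blue for sham rats 1 to 5 and red for stimulated rats 6 to 10. The left panel is Inhba among both ligand subunits and the others are each type I receptor gene among the 3 of them. In rats 7, 9 and 10 the Inhba share is 92.5, 89.5 and 68.2%, and the Acvr1b share is 39.5, 39.6 and 46.5% against 66.7 to 70.1% in sham rats.

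Among the 9 genes other than Inhba, 0 passed an adjusted p-value of 0.05, where 0 of all 22447 rows did (0.0%). At an unadjusted p-value under 0.05 the genes Acvr1, Acvr1c and Fst were higher in stimulated rats, 3 of 9, where 6.7% of all rows were higher at that threshold. None of the 9 was lower, where 3.16% of all rows were. The log2 fold change was above 0 for 6 of the 9 and below 0 for 3, with a median of 0.13, beside a median of 0.012 and 52.2% above 0 over all rows. None of the 9 separated the groups without overlap. The lowest adjusted p-value over all rows was 0.376, so none of the differences below is a call at the adjusted threshold. Because the 9 genes were chosen with earlier results known, these counts beside all rows are a description.

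**Figure D3:**
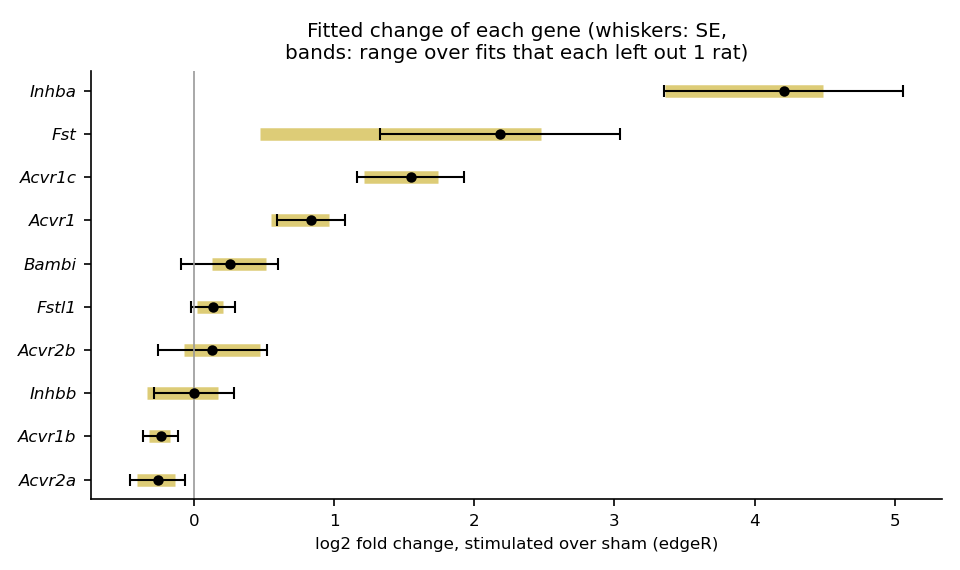
Points are fitted log2 fold changes of stimulated over sham rats from edgeR, whiskers are the SE and bands span the values obtained when each of the 10 rats was left out. Acvr1c, Acvr1 and Fst stay above 0 in every such fit, at 1.21 to 1.74, 0.55 to 0.96 and 0.47 to 2.48. Bambi and Fstl1 also stay above 0, at 0.12 to 0.51 and 0.016 to 0.20. Inhba was picked for being higher.

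Acvr1c, which encodes the type I receptor ALK7 for activin B, nodal and some growth differentiation factors, was the receptor gene with the largest fold change. It was 2.33, 3.89, 1.90, 3.31 and 2.47 CPM in sham rats. It was 4.43, 14.5, 2.81, 11.3 and 7.22 CPM in stimulated rats 6 to 10. Of these, 4 lay above every sham rat, and rat 8 lay inside the sham range. The means were 2.78 ± 0.80 and 8.05 ± 4.84 CPM (SD, n = 5 each). Its fitted log2 fold change was 1.54 (SE 0.38), with an unadjusted p = 0.0012 and an adjusted p = 0.376 in edgeR. The adjusted p was below 0.05 with the likelihood ratio test of edgeR, at 0.0281, and with DESeq2, at 0.0299, and it reached 0.661 when rat 4 was left out.

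Acvr1, which encodes the type I receptor ALK2, best known as a receptor of bone morphogenetic proteins (BMPs), had the same order of rats at its upper end. It was 17.0, 21.9, 18.9, 20.2 and 18.4 CPM in sham rats and 21.3, 58.4, 20.4, 40.6 and 31.1 CPM in stimulated rats 6 to 10. Rats 7, 9 and 10 lay above every sham rat, and rats 6 and 8 inside the sham range. The log2 fold change was 0.84 (SE 0.24), with an unadjusted p = 0.0041 and an adjusted p = 0.389 in edgeR. Over the alternative fits its adjusted p was between 0.0981 and 0.661. The level in rat 7 was 3.03-fold the sham mean, against 29.7-fold for Inhba in the same rat.

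Acvr1b encodes ALK4, the main type I receptor of activin A. It did not share the pattern of the other type I receptors. It was 45.3, 57.0, 42.5, 48.9 and 41.8 CPM in sham rats and 46.1, 47.6, 38.2, 34.0 and 33.3 CPM in stimulated rats. Rats 8, 9 and 10 lay below every sham rat, while rats 6 and 7 lay inside the sham range. Rats 8, 9 and 10 were also those with a share of unaligned reads above the sham range. The part of this in the level of Acvr1b was not tested. The log2 fold change was -0.24 (SE 0.13, adjusted p = 0.552 by edgeR), and it was between -0.32 and -0.17 when each rat was left out.

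The makeup of type I receptor reads therefore differed between rats. Acvr1 made up 26.3 to 29.9% of them in sham rats and 29.7, 48.5, 33.2, 47.3 and 43.4% in stimulated rats 6 to 10. Acvr1c made up 3.01 to 4.70% in sham rats and 6.18, 12.1, 4.57, 13.1 and 10.1% in stimulated rats. Rats 7, 9 and 10 stood apart in both shares, and rats 6 and 8 lay in or near the sham range. The Acvr1b share was 64.1 and 62.3% in rats 6 and 8, just under the lowest sham rat at 66.7%. The summed level of the 3 genes was 62.7 to 82.8 CPM in sham rats and 71.8, 121, 61.4, 85.8 and 71.6 CPM in stimulated rats, so rats 7 and 9 lay above the sham range while the sum of rat 10 lay inside it.

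The type II receptors bind the ligand first. Acvr2a was 17.0, 13.4, 17.1, 17.4 and 15.8 CPM in sham rats and 18.2, 10.8, 18.3, 8.52 and 11.7 CPM in stimulated rats 6 to 10. The 3 rats with the highest Inhba, rats 7, 9 and 10, lay below every sham rat, and rats 6 and 8 lay above every sham rat. The means were 16.1 ± 1.7 and 13.5 ± 4.5 CPM (SD, n = 5 each), and the difference did not pass the test (log2 fold change -0.26, SE 0.20, adjusted p = 0.681 by edgeR). The coefficient of variation was 10.4% in sham and 33.3% in stimulated rats.

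Acvr2b was the type II gene with the fewer reads, 7 to 53 counts a library. It was 1.40, 0.53, 2.88, 1.82 and 1.09 CPM in sham rats and 2.04, 1.02, 2.17, 1.07 and 2.27 CPM in stimulated rats, and every stimulated rat lay inside the sham range. The fit gave a log2 value of 0.13 (SE 0.39) for stimulated over sham, with adjusted p = 0.937 by edgeR. Acvr2a held 85.6 to 96.2% of the type II reads in sham and 83.7 to 91.3% in stimulated rats, ranges that overlap. The summed level of both genes was 13.9 to 20.0 CPM in sham rats and 20.2, 11.8, 20.5, 9.59 and 13.9 CPM in stimulated rats, lowest in rats 9 and 7.

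Of the binders, Fst stood apart in a single rat. It was 0.81, 0, 0.27, 0.87 and 0.54 CPM in sham rats, on 14, 0, 5, 21 and 13 counts. The 0 counts of rat 2 allow a level of up to 0.229 CPM. In stimulated rats 6 to 10 it was 0.50, 0.88, 0.51, 9.13 and 0.98 CPM, on 11, 19, 8, 179 and 19 counts. Rat 9, the rat with the highest Inhba, stood at 18.3-fold the sham mean, and rat 7, second in Inhba, lay close to the highest sham rat. In the fit the log2 fold change was 2.18 (SE 0.86), with an unadjusted p = 0.0236 and an adjusted p = 0.431 in edgeR, and without rat 9 it was 0.47 (SE 0.60, adjusted p = 0.854). The difference in Fst thus rests on rat 9.

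Fstl1 encodes a secreted glycoprotein with a follistatin-like domain. It was 16.5, 9.39, 13.8, 16.7 and 14.0 CPM in sham rats and 17.6, 15.6, 14.5, 12.8 and 17.0 CPM in stimulated rats, with most rats of both groups in a common range. Its log2 fold change was 0.13 (SE 0.16, adjusted p = 0.808 by edgeR). Bambi encodes a decoy receptor that lacks the kinase domain. It was 1.05, 0.53, 0.38, 0.58 and 0.54 CPM in sham rats and 0.63, 0.70, 0.70, 0.71 and 0.93 CPM in stimulated rats, on 7 to 18 counts a library. All stimulated rats lay inside the sham range, and the fitted difference, 0.25 on the log2 scale, was smaller than its SE of 0.35 (adjusted p = 0.846 by edgeR).

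The genes whose level followed Inhba most closely over the 10 rats were then listed, as a description. The measure was Pearson's r of log2 CPM among 11732 genes with a symbol and a mean of at least 10 counts. The 8 highest were Baz1a (0.993), Arhgef7 (0.991), Ccnf (0.989), Srxn1 (0.985), Zmiz1 (0.981), Bag3 (0.981), Midn (0.980) and Cdkn1a (0.979). Baz1a encodes a chromatin remodelling subunit, Bag3 a co-chaperone, Srxn1 an enzyme that restores oxidised peroxiredoxins and Cdkn1a the cyclin-dependent kinase inhibitor p21. Each r stayed at 0.966 or above when any rat was left out. The 10 points share libraries, and the coefficients rest on rats 7, 9 and 10 standing apart from the other rats, so r does not measure a relation within the sham rats.

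Baz1a shows the likeness in values. It was 2.33, 3.21, 2.72, 2.60 and 2.39 CPM in sham rats and 3.21, 19.3, 3.13, 31.8 and 7.33 CPM in stimulated rats 6 to 10. As for Inhba, rat 9 was highest, then rat 7, then rat 10. Bag3, in contrast, was 150 CPM in rat 7 and 136 CPM in rat 9, with rat 7 the higher, over 15.0 to 18.7 CPM in sham rats.

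Measured in the same way, Acvr1 (r = 0.944, rank 63 of 11732) and Acvr1c (r = 0.940, rank 74) were the activin genes most like Inhba. Fst had r = 0.704, and 0.388 to 0.792 when each rat was left out. Bambi had 0.326 and Fstl1 0.022. On the opposite side, Acvr2a had r = -0.897, the 61st lowest of the 11732 genes, and stayed between -0.943 and -0.807 when each rat was left out. Acvr1b had -0.469, Inhbb -0.427 and Acvr2b -0.203, and these 3 varied widely with the rats included. Inhba set this scale and was picked by its values, so these coefficients describe the rats and carry no test.

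**Figure D4:**
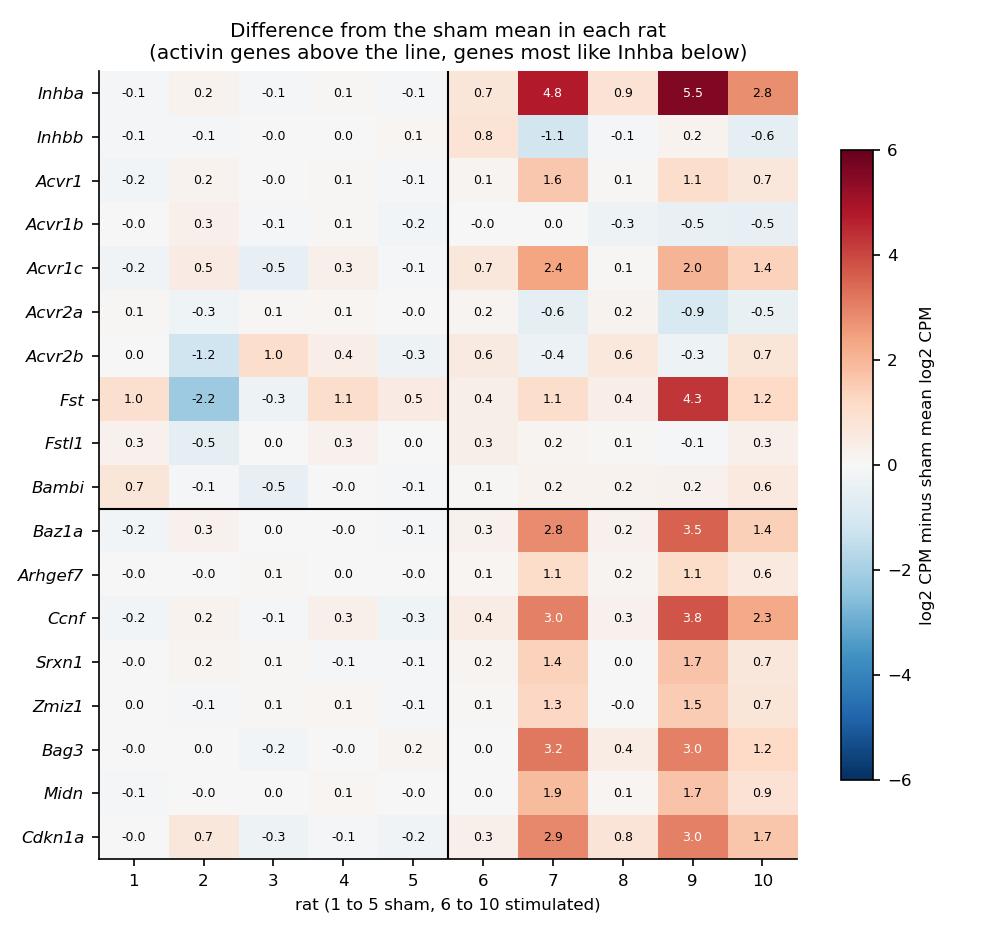
Colour and number give log2 CPM of each rat minus the sham mean of log2 CPM, for the 10 activin genes above the horizontal line and the 8 genes most like Inhba below it, with sham rats 1 to 5 left and stimulated rats 6 to 10 right of the vertical line. Rats 7, 9 and 10 carry the high values of Inhba, Acvr1, Acvr1c and the 8 like genes and the low values of Acvr2a, and Fst is high in rat 9.

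The other genes of the pathway were taken from lists by role, chosen with earlier results of these data known, so their counts are a description. Counting the activin genes out, the lists held 42 genes, of which 38 were in the matrix and 35 passed the filter on low counts. Of these 35, 23 had a log2 fold change above 0 and 12 below 0, with a median of 0.14. At an unadjusted p-value under 0.05, 5 of the 35 were higher and 0 lower, where 6.7% and 3.16% of all rows were, and 0 passed the adjusted threshold in edgeR. The median over all rows was 0.012.

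Of 6 related ligand genes, Inhbc, Inhbe and Nodal had too few counts to be tested. Inha, which pairs with either β subunit to make inhibin in place of activin, had a mean of 5.08 ± 1.00 CPM in sham rats against 3.89 ± 0.98 CPM with stimulation (SD, n = 5 each), a log2 fold change of -0.39 (SE 0.21). Gdf11, another ligand of the activin type II receptors, was 52.0 ± 3.1 and 46.0 ± 10.1 CPM (log2 fold change -0.18, SE 0.14). The third tested member was Mstn, which encodes myostatin, with a log2 fold change of 0.68 (SE 0.60). None of the 3 passed an unadjusted p-value of 0.05, and their median was -0.18. Over all rows, 6.7% were higher and 3.16% lower at that threshold.

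The co-receptors and further binders (6 tested, median 0.15) and the receptors shared with BMP and TGF-β signalling (6 tested, median -0.022) held 0 genes at an unadjusted p-value under 0.05. Over all rows, 6.7% were higher and 3.16% lower at that threshold. Bmpr1a and Bmpr2 both had a log2 fold change of 0.14, and Acvrl1, the endothelial type I receptor ALK1, had the lowest of the shared receptors at -0.24 (SE 0.18). The receptor-activated and common Smads had no call at an unadjusted p-value under 0.05. Smad2 was 17.0 ± 1.0 and 15.9 ± 1.9 CPM, Smad3 52.7 ± 4.7 and 59.9 ± 11.5 CPM and Smad4 21.4 ± 2.5 and 22.1 ± 4.0 CPM in sham and stimulated rats (SD, n = 5 each), with log2 fold changes of -0.10, 0.19 and 0.053.

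Of the 14 tested Smads and intracellular regulators, 2 were higher at an unadjusted p-value under 0.05 and 0 lower. The shares over all rows were 6.7% and 3.16%, and the list median was 0.16. The 2 higher genes both dampen signalling by Smad2 and Smad3. Smad7, the inhibitory Smad, was 13.9 to 16.6 CPM in sham rats and 13.1, 27.1, 19.3, 69.8 and 22.4 CPM in stimulated rats 6 to 10 (log2 fold change 1.02, SE 0.35, unadjusted p = 0.0106). Pmepa1, which keeps Smad2 and Smad3 from the receptor, was 24.7 to 32.7 CPM in sham rats and 23.0, 96.7, 32.6, 81.7 and 66.7 CPM in stimulated rats (log2 fold change 1.07, SE 0.31, unadjusted p = 0.0037). In both genes rats 7, 9 and 10 lay above every sham rat and rat 6 below, while rat 8 was above every sham rat in Smad7 alone.

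The 8 tested transcripts known to respond to Smads hold Smad7 and Pmepa1 as well. Of the 8, 5 were higher and 0 lower at an unadjusted p-value under 0.05, and 0 passed the adjusted threshold. Over all rows, 6.7% were higher and 3.16% lower at the unadjusted threshold. The list median was 0.75. Cdkn1a had a log2 fold change of 2.11 (SE 0.46). It was 3.32 to 6.64 CPM in sham rats and 5.16, 30.7, 7.15, 33.9 and 13.3 CPM in stimulated rats 6 to 10, so rats 7, 9 and 10 stood highest. Id1 had 0.49 (SE 0.20). Id3 had the lowest value, at -0.087 (SE 0.18), and Ccn2 had 0.083 (SE 0.25).

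Genes that neuronal activity induces were set beside these, in lists also chosen with earlier results of these data known. Of 7 tested activity-regulated survival genes, 5 were higher at an unadjusted p-value under 0.05 with a list median of 1.94. With limma-voom that count was 1. Gadd45b, 1 of them, was 8.93 to 9.97 CPM in sham rats and 10.5, 40.3, 9.13, 106 and 18.5 CPM in stimulated rats 6 to 10. Of 11 immediate early genes, 10 were higher at that threshold, with a list median of 1.86. With limma-voom that count was 4. The lists share 2 genes, Nr4a1 and Npas4, and together hold 16 distinct tested genes, of which 13 were higher at that threshold, where 6.7% of all rows were. Arc, a regulator of glutamate receptor trafficking, was 41.0 to 59.1 CPM in sham rats and 68.3, 188, 44.4, 1118 and 208 CPM in stimulated rats. Fos was 3.26 to 5.32 CPM in sham rats and 5.61, 106, 5.24, 50.3 and 61.7 CPM in stimulated rats. Rats 7, 9 and 10 were the highest in Gadd45b, Arc and Fos as in Inhba. The genes that both lists hold were highest in rat 10. Npas4, a transcription factor induced by calcium entry, was 0 to 1.13 CPM in sham rats and 1.31, 0.37, 0.70, 1.22 and 11.9 CPM in stimulated rats, so rat 10 alone stood apart. Nr4a1 was 17.5 to 22.6 CPM in sham rats and 23.9, 33.3, 14.0, 32.6 and 92.1 CPM in stimulated rats. Its 3 highest values were thus again in rats 7, 9 and 10. None of the genes of these lists passed the adjusted threshold in edgeR.

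**Figure D5:**
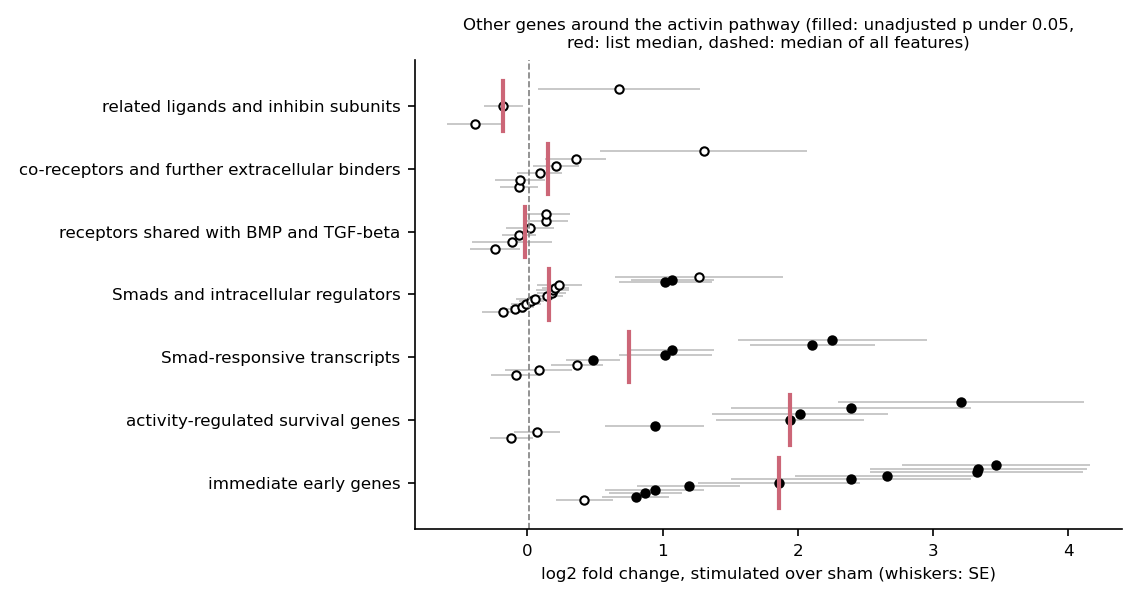
Each point is the fitted log2 fold change of 1 gene, stimulated over sham, with its SE as whiskers, filled where the unadjusted p-value was under 0.05. Red bars are list medians and the dashed line is the median of all rows at 0.012. The 3 upper lists, ligands and receptors, hold no filled point. Filled points make up 5 of 8 Smad-responsive, 5 of 7 survival and 10 of 11 immediate early genes. Over all rows, 6.7% were higher at that threshold.

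Markers of cell types were summed in each rat. Markers of CA3 pyramidal cells summed to 1184 to 1374 CPM in sham rats and 1245, 2082, 1262, 1480 and 1623 CPM in stimulated rats 6 to 10. Those of dentate granule cells summed to 244 to 298 CPM and 242, 159, 246, 356 and 203 CPM. Both lists thus had reads in every rat, which does not show how much of each field a sample held. Markers of CA1, which the label does not name, summed to 176 to 297 CPM in sham rats against 100 to 354 CPM after stimulation. At an unadjusted p-value under 0.05, 1 of 4 tested CA3 markers, 0 of 4 dentate markers and 0 of 5 CA1 markers were higher. Over all rows that share was 6.7%. The dentate marker Tdo2 was at 0 in 9 of the 10 rats, and the CA3 marker Iyd in 3. Rats 7, 9 and 10 had the highest sums of CA3 markers. This came from Chgb, a secretory granule protein gene and the called CA3 marker, at 1519, 1034 and 1165 CPM in these rats and 694 to 907 CPM in sham rats. Without Chgb the CA3 sums were 455 to 522 CPM in sham rats and 451, 562, 492, 446 and 458 CPM in stimulated rats 6 to 10, with rat 7 above and rats 6 and 9 below the sham range. Rat 7 had the lowest and rat 9 the highest sum of dentate markers.

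Astrocyte markers summed to 3311 to 3741 CPM in sham rats and 3341, 8605, 3440, 4468 and 7469 CPM in stimulated rats 6 to 10. Their high values fell on rats 7, 10 and 9, the 3 rats with the highest Inhba, but with rat 9 the lowest of the 3. Of 6 astrocyte markers, 3 (Gfap, Aqp4 and Slc1a3) were higher at an unadjusted p-value under 0.05, where 6.7% of all rows were. Gfap, which carried most of the difference in the sum, was 6469 CPM in rat 7, 5396 CPM in rat 10 and 2079 CPM in rat 9 against 1327 to 1927 CPM in sham rats. Without Gfap the astrocyte sums were 1813 to 2132 CPM in sham rats and 2015, 2136, 2065, 2390 and 2072 CPM in stimulated rats 6 to 10, with rat 9 the highest. Aldh1l1, another astrocyte gene, was 16.4 CPM in rat 7 and 29.3 CPM in rat 10, below every sham rat (40.5 to 50.9 CPM). Endothelial markers (5 tested, 3 higher) summed to 119 to 138 CPM in sham rats against 133 to 251 CPM after stimulation, mural cell markers (6 tested, 3 higher) to 68.4 to 83.7 and 67.5 to 122 CPM, and those of meningeal fibroblasts (6 tested, 2 higher) to 31.4 to 45.9 and 34.9 to 76.3 CPM. When each rat was left out, the genes higher at that threshold numbered 1 to 3 for astrocytes (1 without rat 7), 1 to 4 for endothelium (1 without rat 10), 3 to 4 for mural cells and 0 to 3 for meningeal fibroblasts (0 without rat 10). For the fibroblast list the count was also 1 without any one of rats 1 to 5 or rat 8. The part of these cell types in the values of the activin genes was not tested.

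The remaining lists held 0 genes at an unadjusted p-value under 0.05 in the higher direction, where 6.7% of all rows were. Their summed levels in sham and stimulated rats were 3339 to 3902 and 3489 to 3745 CPM for neurons in general, 321 to 369 and 289 to 384 CPM for interneurons, 230 to 282 and 246 to 341 CPM for microglia, 2532 to 3655 and 2045 to 3416 CPM for oligodendrocytes, and 2.23 to 17.0 and 7.28 to 27.0 CPM for choroid plexus. The ranges of the groups overlapped in each of these lists. Against the sham range, rats 7 and 9 lay above it for microglia, and rats 7 and 10 for choroid plexus. For interneurons rats 9 and 10 lay above it and rats 7 and 8 below. For oligodendrocytes rat 7 lay below it, and for neurons in general no stimulated rat lay outside. All 6 oligodendrocyte markers had a log2 fold change below 0, with 0 lower at an unadjusted p-value under 0.05.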

How the data were processed

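Messenger RNA of 10 rats was read in single reads of 36 cycles after poly(A) selection. The deposited matrix holds raw counts, 1 whole number for each RefSeq transcript record and rat. The authors made them by aligning reads to the rat build rn4 with BWA and counting them with their own script over an Ensembl annotation, per the methods, although the rows carry RefSeq identifiers. How reads on several records were counted, and whether strand was used, is not given in the sources used here, so overlapping records are uncertain. The methods count 1 stimulated rat fewer for this assay than the labels do, without naming it. All 10 labelled rats were used, and each was left out in turn.

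Groups came from the treatment label of each sample. Nothing shared by the labels pairs sham with stimulated rats. The row of unaligned reads was left out. Of 32041 rows, 3904 were at 0 in every rat, and 22447 had a summed count of at least 46 (the 30th percentile) and were tested. Symbols were matched by transcript identifier to the RefSeq gene table of GRCr8 (12970 tested rows, 12321 symbols), from which names and the order of neighbouring genes were taken. Where a symbol had several rows, that with the highest mean count was used. Stimulated and sham rats were compared in edgeR 4.0.16 (R 4.3.3) by its quasi-likelihood test, with trimmed mean (TMM) factors and no covariate. Log2 CPM used a prior count of 2. DESeq2 1.42.0 and voom of limma 3.58.1 were alternatives, beside the likelihood ratio test, adjusted deviances, other scalings, filters and summed rows. The fit was tested on simulated data, in which 200 rows changed by 2 on the log2 scale, alike in every stimulated rat. The spread between rats was capped there, so this does not show how the fit performs at the spread seen here. Depth, 13552309 to 24086059 aligned counts, limits genes of few counts, and Wilson and exact Poisson intervals at 95% and limits of 3 counts for a count of 0 cover counting error only.

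The activin genes and all gene lists were chosen with earlier results of these data known. Named genes are the 10 members, the 8 genes with the highest Pearson r with Inhba, and those members of the lists whose fold change a sentence needs. The values of 1 listed gene are not reported here. Promoter windows were the 250 bases before the start in a RefSeq promoter table of GRCr8, and the coordinates printed with them are of that build and not of rn4. Tables were handled in Python 3.11.15 (pandas 2.3.3, numpy 2.4.6, scipy 1.17.1, matplotlib 3.10.9).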

Additional observations from a re-analysis of the deposited data

Results flagged for a closer look

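In 2 of the 20 gene and group combinations, a single rat lay apart from the other 4 of its group, by a gap that exceeded Dixon's 95% critical value of 0.71 as a share of the group's range. Chance gives about 1 such case in 20 for independent normal values, which CPM of the same rats, in part on few counts, need not be. The first was Fst in stimulated rat 9, at 9.13 CPM against 0.50 to 0.98 CPM in the other stimulated rats, with a gap of 0.944 of the range. Without this rat the log2 fold change of Fst was 0.47 in place of 2.18. The second was Bambi in stimulated rat 10, at 0.93 CPM against 0.63 to 0.71 CPM in the other stimulated rats, with a gap of 0.727 of the range. The counts behind the Bambi values are 18 in rat 10 and 11 to 15 in the others, whose 95% Poisson intervals overlap.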

How the results depend on the processing

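The count of genes other than Inhba at an adjusted p-value under 0.05 was 0 with the reported test and 1 with the likelihood ratio test of edgeR and with DESeq2, where the gene was Acvr1c (log2 fold change 1.54 and 1.53, adjusted p = 0.0281 and 0.0299). Over all rows the count went from 0 to 119 and 33 with these tools, and the cause was not tested. At an unadjusted p-value under 0.05 the reported test gave 2214 rows in all. DESeq2 gave no p-value for Fst and no adjusted p-value for Bambi. The log2 fold change of Inhbb, -0.0029, turned to 0.022 with library size alone, and lay between -0.34 and 0.17 when each rat was left out. That of Acvr2b, 0.13, lay between -0.076 and 0.47, below 0 without sham rat 2. Over the same 10 fits the genes other than Inhba at an unadjusted p-value under 0.05 numbered 2 to 4, and all rows at that threshold 1657 to 3145. The counts at an adjusted p-value under 0.05 stayed at 0 in each of these 10 fits, and the smaller number of rats is part of their construction. With limma-voom the log2 fold changes of Inhba and Fst were 3.07 and 1.57, against 4.21 and 2.18 as reported. Fst was at 0.47 without rat 9 and at 1.92 to 2.48 without any other rat. Immediate early genes higher at an unadjusted p-value under 0.05 numbered 8 to 11 when each rat was left out and 4 with limma-voom, Smad-responsive transcripts 4 to 6, Smads and intracellular regulators 2 to 4 (4 without rat 8), and activity-regulated survival genes 3 to 5 (3 without rat 10) and 1 with limma-voom, alternatives chosen after seeing the data. Of the 169 fold changes of genes other than Inhba that had an adjusted p-value under an alternative, 160 kept their direction and their side of the adjusted threshold, 2 passed it and 7 changed sign. No paired analysis was possible because the rat numbers are not shared between the groups. Depth limits Bambi, Acvr2b and Fst, with 13.1, 32.0 and 28.9 counts a rat on average.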

Other observations

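Acvr1c and Acvr1 are next to each other on rat chromosome 3 in the order of protein-coding genes of GRCr8, with 0 such genes between them. Non-coding genes were not looked at. Their neighbours were looked at after the values of both genes were seen. Of the 10 nearest protein-coding genes, 5 on each side, 7 were tested. Of these, 3 had a log2 fold change above 0, and the values ran from -0.60 to 0.88. Over all rows, 52.2% were above 0, and 6.7% were higher and 3.16% lower at an unadjusted p-value under 0.05. The 1 neighbour at an unadjusted p-value under 0.05 was Nr4a2, which encodes an orphan nuclear receptor that neuronal activity induces. Its mean was 19.5 ± 3.1 CPM in sham rats (SD, n = 5), and it was 23.3, 48.2, 19.1, 58.1 and 29.7 CPM in stimulated rats 6 to 10 (log2 fold change 0.88, SE 0.26, adjusted p = 0.396 by edgeR), so rats 7, 9 and 10 were again the 3 highest. The nearest tested neighbours, Cytip next to Acvr1c and Upp2 on the side of Acvr1, differed by -0.047 (SE 0.83) and -0.16 (SE 0.31) on the log2 scale.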
